A study of Mus musculus with 15 samples.

Results

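Eosinophils are granulocytes that store cationic proteins, ribonucleases and a peroxidase in large granules. The 9 genes described here were Ear1, Ear2, Ear6 and Rnase2a, which encode eosinophil-associated ribonucleases, Epx (eosinophil peroxidase), Prg2 and Prg3 (major basic protein and its homologue), Il5ra (the interleukin 5 receptor alpha chain) and Ccr3 (the eotaxin receptor). They were taken by symbol, as 9 of the 38315 genes of a table of normalized counts, and each symbol occurred once. Total RNA of 15 mouse bone marrow samples had been sequenced in bulk. Leukaemic marrow (acute myeloid leukaemia, AML) from NUP98-NSD1/FLT3-ITD mice gave 7 samples. Wild-type mice gave 4 samples of whole marrow and 4 of lineage-negative marrow, from which cells bearing antigens of mature lineages have been removed. NUP98-NSD1 joins a nucleoporin to a histone methyltransferase, and FLT3-ITD stands for a duplicated stretch within the receptor tyrosine kinase FLT3. The labels give no age, sex or sort gate, name no promoter for the NUP98-NSD1 and FLT3-ITD alleles, and do not say that wild-type replicates came from separate animals. P-values therefore measure the spread between these samples, part of which may be technical.

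Eosinophils arise in the marrow from granulocyte progenitors in a programme that depends on the transcription factor GATA1 and on C/EBP factors, with interleukin 5 as the main late growth signal. The granule proteins are made early, while cells still divide, and CCR3 appears as cells mature and lets them follow eotaxins out of the marrow. The Ear and Rnase2 genes of the mouse are a cluster of recent duplicates on chromosome 14, so their transcripts share long identical stretches.

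The 4 ribonuclease genes are shown first by sequence, because how far their reads can be told apart bears on every value below. Over aligned coding sequence, Ear1 was 95.1% identical to Ear2 (23 of 471 columns differed), 87.4% to Ear6 and 79.1% to Rnase2a. By comparison, Prg2 and Prg3 were 64.3% identical. The stretch starting at coding base 256 is printed from the GENCODE transcripts (5′ to 3′, capitals mark bases that differ from Ear1 in the alignment).
Ear1: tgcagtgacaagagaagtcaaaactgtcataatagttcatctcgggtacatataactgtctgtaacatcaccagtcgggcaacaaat
Ear2: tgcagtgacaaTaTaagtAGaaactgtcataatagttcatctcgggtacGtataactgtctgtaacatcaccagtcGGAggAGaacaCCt
Ear6: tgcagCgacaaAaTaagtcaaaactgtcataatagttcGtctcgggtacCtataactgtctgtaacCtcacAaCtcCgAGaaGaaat
Rnase2a: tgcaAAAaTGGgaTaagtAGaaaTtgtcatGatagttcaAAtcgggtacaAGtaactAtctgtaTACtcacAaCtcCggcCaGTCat
In these 87 to 90 bases, 12 differed from Ear1 in Ear2, 12 in Ear6 and 26 in Rnase2a. Of all 50-base windows of the transcript, 42.6% of those of Ear1 and 58.5% of those of Ear2 occurred in that gene alone, against 98.6% for Ear6 and 100% for Rnase2a, Epx, Prg2, Prg3 and Ccr3. The windows of Ear1 were shared most often with the pseudogene Ear-ps9 (275 of 664 windows) and with Ear2 (158). Those of Ear2 were shared most often with Ear10 (174 of 670). The split of reads between Ear1, Ear2 and these neighbours is therefore uncertain in part, while Ear6 and Rnase2a could be counted almost wholly from sequence of their own.

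By identity to Ear1, the windows upstream of the 4 genes followed the same order. In the RefSeq promoters of GRCm38.p6, the 250 bases before the start of Ear1 were 97.6% identical to those of Ear2, 78.2% to those of Ear6 and 61.3% to those of Rnase2a. The 120 bases next to each start are printed on the strand of the gene, because Ear2 and Rnase2a differed from Ear1 and Ear6 in AML (capitals mark differences from Ear1).
Ear1, chr14:43819640-43819759, minus strand: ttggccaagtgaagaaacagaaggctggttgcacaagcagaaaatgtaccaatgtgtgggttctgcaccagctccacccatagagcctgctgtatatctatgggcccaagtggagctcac
Ear2, chr14:44102534-44102653, plus strand: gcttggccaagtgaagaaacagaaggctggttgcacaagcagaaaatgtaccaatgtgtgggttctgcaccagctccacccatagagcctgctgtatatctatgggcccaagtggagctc
Ear6, chr14:51853648-51853767, plus strand: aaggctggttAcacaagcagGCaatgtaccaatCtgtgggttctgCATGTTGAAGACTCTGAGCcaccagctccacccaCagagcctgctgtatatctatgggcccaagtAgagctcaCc
Rnase2a, chr14:51256113-51256232, minus strand: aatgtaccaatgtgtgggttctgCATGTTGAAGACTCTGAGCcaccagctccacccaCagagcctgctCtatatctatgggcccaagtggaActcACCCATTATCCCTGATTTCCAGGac
Ear2 had no base that differed from Ear1 over this stretch, Ear6 had 26 and Rnase2a had 45. Most of those in Ear6, and many in Rnase2a, belong to the inserted run named next. Most of the rest in Rnase2a form a run next to its start, beyond the sequence at which the Ear1 window ends. The identities thus reflect insertions and shifted windows as well as base changes, and their order is not one of base changes alone. Both Ear6 and Rnase2a carried the same inserted run (CATGTTGAAGACTCTGAGC) that Ear1 and Ear2 lacked. A C/EBP pair of half-sites (TTGCNNAA, searched on both strands and found in 9.56% of 32851 promoters of this length) occurred in Ear1, Ear2 and Rnase2a and not in the window of Ear6. The match lay 92 and 90 bases before the start in Ear1 and Ear2. In Rnase2a it lay 217 bases before the start and was a different word, so it is not the same site. These matches describe the letters of the windows alone.

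Of the 15 libraries, those of AML had an estimated 20.3 to 35.1 M reads (M, mega), those of lineage-negative marrow 20.3 to 28.1 M and those of whole marrow 11.4 to 17.2 M. A floor of 3 reads, which covers counting error only, corresponded to 1.96 to 4.09 normalized counts. Whole marrow libraries listed 7.12% to 15.7% of genes at 0, against 35.7% to 41.0% in lineage-negative marrow and 23.6% to 41.4% in AML. The mean over 1611 olfactory and vomeronasal receptor genes, which marrow should not use, was 6.69 to 12.6 normalized counts in whole marrow, 0.351 to 0.475 in lineage-negative marrow and 0.437 to 3.55 in AML. Lineage-negative marrow had a summed neutrophil marker level of 996 to 16942, against 432501 to 1157050 in whole marrow, and a summed stem and progenitor marker level of 14094 to 18522, against 1145 to 2042. The median of all genes lay 0.67 (log2) above whole marrow in AML, 0.59 above it in lineage-negative marrow, and at 0.02 between AML and lineage-negative marrow. After scaling by the trimmed mean of M values (TMM) these medians were 0.08, 0.01 and 0.02, so values relative to the median are given beside the larger statements.

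Against whole marrow, 8 of the 9 eosinophil genes were lower in AML and 1, Rnase2a, was higher. Calls required an adjusted p under 0.05 (limma, Benjamini-Hochberg) together with a log2 difference of 1 or more in either direction, and by that rule 11.3% of 18941 genes were called lower and 27.3% higher. All 9 passed the filter on low values (at least 10 normalized counts in at least 4 samples), Rnase2a through AML alone and Ear6 and Ccr3 through normal marrow alone, so these counts describe the genes and support no direction. TMM scaling gave the same 1 and 8 calls, with 15.1% of all genes lower and 6.01% higher. The median log2 difference of the 9 genes was −5.70, beside 0.67 for all genes tested. Against lineage-negative marrow, 6 were lower, 1 was higher (again Rnase2a) and 2 were not called, with 12.5% and 17.7% of all genes called lower and higher. Their median was −4.60, beside 0.02 for all genes. In lineage-negative against whole marrow, 6 were lower and none was higher (17.2% and 33.1% of all genes), with a median of −1.67 beside 0.59. With TMM scaling this became 7 lower (23.3% of all genes lower, 13.7% higher). For the 8 genes lower than whole marrow, fewer eosinophil cells and less RNA per cell cannot be told apart in bulk RNA. Which cells carried the Ear2 and Rnase2a transcripts in AML was not tested.

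**Figure D1:**
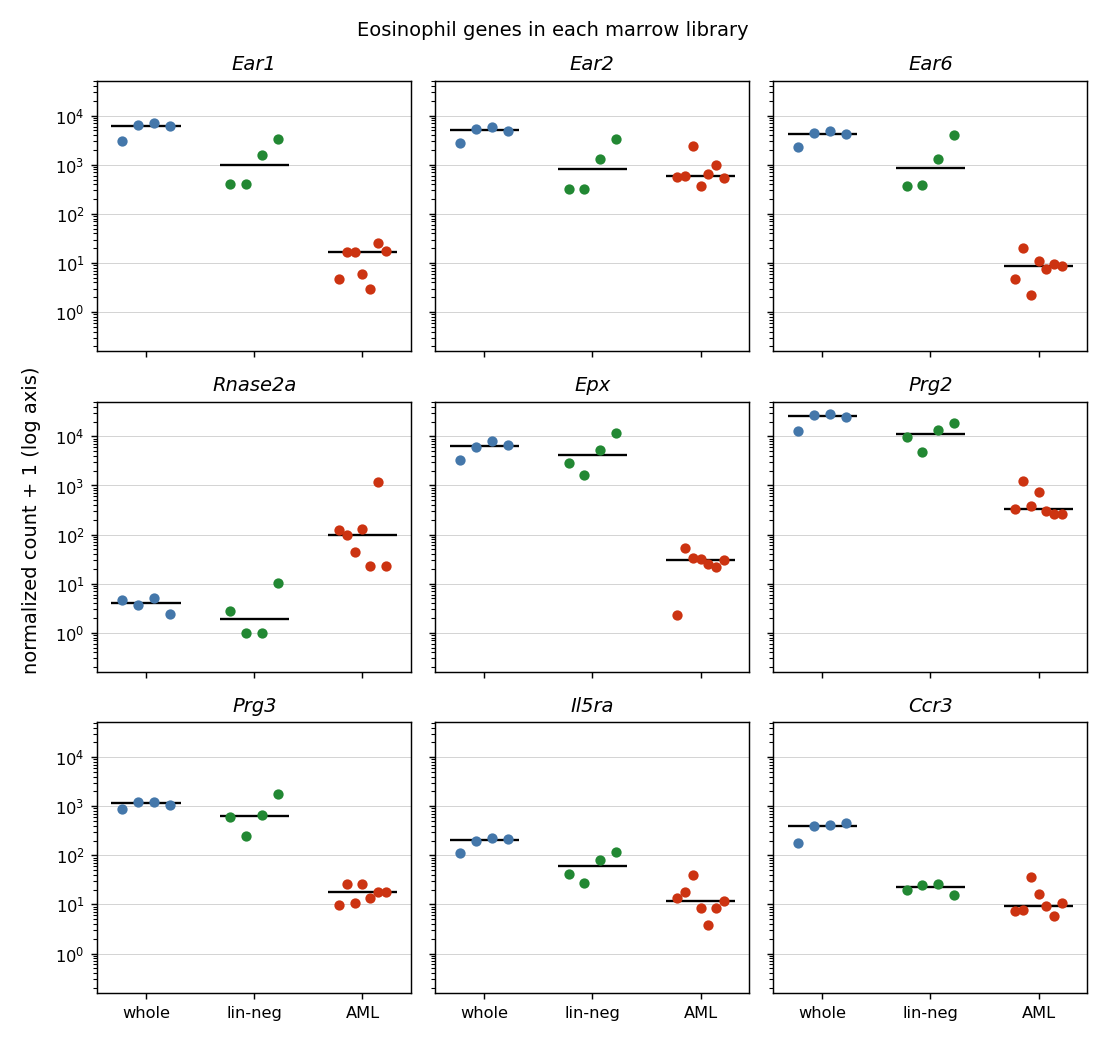
Normalized count plus 1 on a log axis for each eosinophil gene in 4 whole marrow, 4 lineage-negative and 7 AML libraries; each point is a library and each line a group median. Rnase2a is the gene whose AML points lie above both normal groups (21.6 to 1177), and Ear2 is the ribonuclease whose AML points (360 to 2374) lie at the level of lineage-negative marrow.

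Among the ribonucleases, Ear1 (ENSMUSG00000072601, GRCm38 chr14:43818765-43875517, minus strand, an annotated span of 56753 bases with 730 exonic bases) was abundant in normal marrow and nearly lost in AML. Its normalized counts were 2975, 6393, 7179 and 6149 in whole marrow replicates 1 to 4, and 409, 409, 1597 and 3339 in lineage-negative replicates 1 to 4. The 7 AML libraries ranged from 1.90 to 24.7 with a median of 15.7, and 2 of them were at or under the floor. Every AML library lay far below every normal library, and lineage-negative replicate 4 was the only one of its group inside the whole marrow range. The AML mean was 0.210% of the whole marrow mean. The log2 difference from whole marrow was −9.06 (SE 0.59, adjusted p = 2.18e-09; −9.73 relative to the median of all genes) and that from lineage-negative marrow −6.59 (SE 0.59, adjusted p = 2.60e-08). Lineage-negative marrow differed from whole marrow by −2.47 (SE 0.67, adjusted p = 0.00321), and its mean of 1438 ± 1385 (SD, n = 4) dropped to 805 without replicate 4.

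Ear6 (ENSMUSG00000062148, chr14:51853699-51854643, plus strand, 945 exonic bases) went the same way. Its normalized counts were 2282, 4421, 4927 and 4205 in whole marrow, 363, 388, 1326 and 4091 in lineage-negative marrow, and 1.23 to 19.1 in AML with a median of 7.55. The AML libraries, 2 of them at or under the floor, were again all below every normal library. The AML mean was 0.206% of that of whole marrow, with log2 differences of −8.96 (SE 0.57, adjusted p = 1.82e-09) from whole and −6.94 (SE 0.57, adjusted p = 8.84e-09) from lineage-negative marrow. Ear6 reached 10 normalized counts in 2 of 7 AML libraries and in every normal library, so that filter favoured this direction before the test. Over the alternatives, other filters included, adjusted p was at most 8.36e-07 and 4.18e-06 (limma). Lineage-negative marrow was lower than whole marrow by −2.02 (SE 0.65, adjusted p = 0.0102), with a mean of 1542 ± 1757 that became 692 without replicate 4.

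Ear2 (ENSMUSG00000072596, chr14:44102654-44103534, plus strand, 719 exonic bases) kept a far larger part of its level. Whole marrow held 2787, 5311, 5764 and 4878 normalized counts and lineage-negative marrow 315, 322, 1324 and 3394. AML libraries held 360 to 2374 with a median of 599. All 7 AML libraries were below whole marrow and none lay outside the range of lineage-negative marrow. The AML mean was 18.6% of that of whole marrow, a log2 difference of −2.65 (SE 0.54, adjusted p = 0.000346; −3.32 relative to the median). The difference from lineage-negative marrow was −0.19 (SE 0.54, adjusted p = 0.796), and it was 0.49 without lineage-negative replicate 4, so neither a direction nor equality is shown. Lineage-negative marrow lay below whole marrow by −2.46 (SE 0.61, adjusted p = 0.00155), close to the differences of Ear1 and Ear6, and its mean of 1339 was 654 without replicate 4.

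Rnase2a (ENSMUSG00000047222, chr14:51255262-51256112, minus strand, 690 exonic bases) was the gene with the opposite direction. Normal marrow barely held it: 3.59, 2.68, 4.17 and 1.36 normalized counts in whole marrow and 1.82, 0, 0 and 9.14 in lineage-negative marrow, with 2 and 3 of 4 libraries at or under the floor. The whole marrow values lay below the mean of the olfactory and vomeronasal receptor genes in the same libraries. In AML replicates 1 to 7 the counts were 123, 97.9, 44.1, 128, 21.7, 1177 and 21.6. All 7 AML libraries exceeded all 8 normal libraries, and replicate 6 alone carried most of the summed signal: the AML mean of 230 ± 420 (SD, n = 7) became 72.7 without it. The log2 difference was 4.55 from whole marrow (SE 0.84, adjusted p = 0.000159; 3.87 relative to the median) and 5.26 from lineage-negative marrow (SE 0.84, adjusted p = 3.93e-05). No normal library reached the minimum of 10 normalized counts and all 7 AML libraries did, so that filter favoured this direction before the test. With every gene of a non-zero value fitted, the same differences had adjusted p = 0.000288 and 0.000161 (limma). Because the normal groups sat at the floor, these values moved with the pseudocount, from 3.60 to 4.94 against whole and from 3.77 to 7.07 against lineage-negative marrow. Without replicate 6 they were 3.93 (adjusted p = 7.04e-05) and 4.64 (adjusted p = 1.33e-05). Between the normal groups no fold is given, as both lay about the floor.

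AML replicate 6 also stood apart in other measures. It had the highest summed T cell marker level of the AML libraries (2283, against 368 to 1781 in the others), while whole marrow had T cell sums of 191 to 316. Its basophil and mast cell sum was also the highest (7596), of which Hdc alone gave 5968; without Hdc it was 1629, below the 3258 of replicate 5 and the 1777 of replicate 2. It listed the fewest genes at 0 among AML libraries (23.6%). The eotaxin gene Ccl24, a CCR3 ligand named here after its values were seen, was at 275 in replicate 6 and at 1.08 to 11.5 in the other AML libraries. The part of these measures in the Rnase2a level was not tested. With all AML libraries other than replicate 6, Rnase2a still lay between 21.6 and 128, above every normal library.

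Summed over Ear1, Ear2, Ear6 and Rnase2a, which does not depend on how reads were split among them, the ribonuclease signal was 14320 ± 4323 in whole marrow, 4322 ± 4586 in lineage-negative marrow and 1120 ± 830 in AML (SD, n = 4, 4 and 7). AML was thus at 7.82% of whole marrow and lineage-negative marrow at 30.2% (5.41% and 20.7% with TMM scaling). Adding the low paralogs Ear10, Ear14 and Rnase2b moved these to 7.84% and 30.2%. The make-up differed too, most of all in AML. In whole marrow the median shares were 39.9% Ear1, 32.6% Ear2, 27.6% Ear6 and 0.020% Rnase2a, and in lineage-negative marrow 37.1%, 30.05%, 34.0% and 0.0422%. Over the 8 normal libraries, Ear2 lay between 28.8% and 34.6% and Ear1 between 30.8% and 40.4%. The share of Ear6 did not overlap between the normal groups, at 27.4% to 28.4% in whole and 31.2% to 37.8% in lineage-negative marrow, a difference that was not tested. In AML, Ear2 made up 45.4% to 97.5% (median 81.9%), Rnase2a 1.81% to 53.1% (median 13.4%), and Ear1 and Ear6 together a few percent (medians 1.01% and 0.979%). Ear-ps9, the pseudogene that shares most windows with Ear1, was at 0 in every AML library and at 12.8 to 27.3 in whole marrow.

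**Figure D2:**
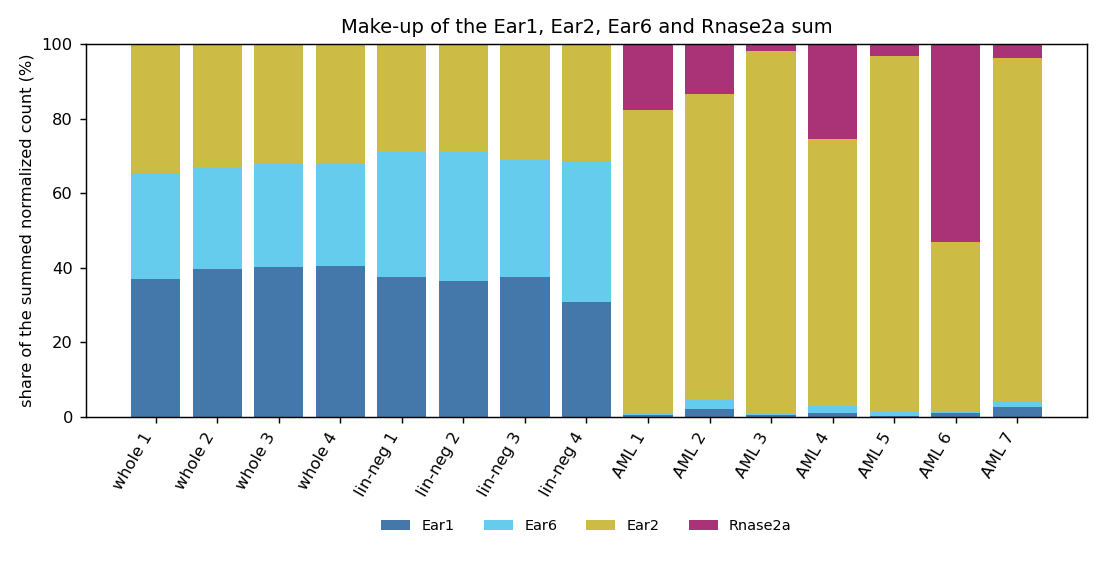
Stacked bars give the share (%) of the summed normalized count of Ear1, Ear6, Ear2 and Rnase2a in each of the 15 libraries. Ear1, Ear2 and Ear6 fill nearly all of each normal bar, with Ear1 at 30.8% to 40.4%, whereas Ear2 fills 45.4% to 97.5% of each AML bar and Rnase2a reaches 53.1% in AML replicate 6.

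Ratios within a library cancel its scaling apart from the pseudocount of 1 added to both genes, which sets the ratio where a gene is at 0. The log2 ratio of Rnase2a over Ear2 was −10.2 ± 0.744 in whole marrow, −8.48 ± 1.46 in lineage-negative marrow and −3.02 ± 2.11 in AML (SD, n = 4, 4 and 7). AML differed from whole marrow by 7.19 (exact permutation test, two-sided, p = 0.00303, the smallest that 330 splits can give; 0.0136 adjusted over 9 ratio tests) and from lineage-negative marrow by 5.45 (exact p = 0.00606, adjusted 0.0182). With pseudocounts of 5 and 0.1 these differences were 6.24 and 7.59 from whole marrow (both adjusted exact p = 0.00909), and 3.96 and 7.26 from lineage-negative marrow (adjusted exact p = 0.0205 and 0.00909), so their size is loosely set. In lineage-negative replicates 2 and 3, where Rnase2a was at 0, Ear2 was at least 122-fold and 501-fold higher against a floor of 3 reads per library. With a pseudocount of 1, all 7 AML ratios lay above all ratios of either normal group. Rnase2a alone already exceeded every normal library in all 7 AML libraries, and it passed the filter through AML alone. The pair of genes was chosen with earlier results of these data known. These p-values are therefore no separate support for a rise of Rnase2a. Ear2 exceeded Rnase2a by 2.82 to 53.8 times in 6 AML libraries and was at 0.855 times it in replicate 6. The normal groups differed by 1.74 (exact p = 0.0857, adjusted 0.11), with normal values of Rnase2a at the floor.

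Of the granule proteins, Prg2 (ENSMUSG00000027073, chr2:84980461-84983632, plus strand), the toxic core protein of the granule, was the most abundant of the 9 in normal marrow. Whole marrow held 12585, 26954, 28450 and 25047 normalized counts, lineage-negative marrow 9498, 4730, 13234 and 18992, and AML 267 to 1254 with a median of 333. The groups of normal libraries overlapped in part, and every AML library lay below both. AML stood at 2.17% of whole marrow, a log2 difference of −5.70 (SE 0.41, adjusted p = 6.13e-09), and at −4.60 (SE 0.41, adjusted p = 2.22e-08) from lineage-negative marrow. Lineage-negative marrow was lower than whole marrow by −1.10 (SE 0.46, adjusted p = 0.0423), a call that was lost when whole marrow replicate 2, 3 or 4 or lineage-negative replicate 1 or 2 was left out (adjusted p 0.0749 to 0.172) or when the filter on low values was dropped (0.0535).

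Prg3 (ENSMUSG00000027072, chr2:84988215-84993886, plus strand) is the neighbour of Prg2 and the less basic of the pair. It had 863, 1230, 1236 and 1070 normalized counts in whole marrow, 597, 244, 666 and 1794 in lineage-negative marrow and 8.91 to 24.7 in AML (median 17.3). AML was 1.49% of whole marrow and below all 8 normal libraries, with log2 differences of −6.06 (SE 0.39, adjusted p = 1.97e-09) and −5.31 (SE 0.39, adjusted p = 1.98e-09) from whole and lineage-negative marrow. The difference between the normal groups, −0.75 (SE 0.44, adjusted p = 0.145), was not called as deposited. It was called with TMM scaling (−1.35, adjusted p = 0.0171) and without lineage-negative replicate 4 (−1.24, adjusted p = 0.0111), which took the lineage-negative mean from 825 to 503.

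Epx (ENSMUSG00000052234, chr11:87864000-87875536, minus strand), whose product makes oxidants from peroxide and bromide, had 3323, 6054, 7994 and 6756 normalized counts in whole marrow. Lineage-negative marrow held 2895, 1622, 5271 and 11716, on both sides of the whole marrow range. AML libraries held 52.9, 33.1, 31.3, 24.5, 20.98 and 29.1 in replicates 2 to 7 and 1.27, a value under the floor, in replicate 1. All AML libraries lay below all normal ones. AML was 0.457% of whole marrow, with a log2 difference of −8.05 (SE 0.63, adjusted p = 1.80e-08; −7.50 without replicate 1), and −7.57 (SE 0.63, adjusted p = 9.21e-09) from lineage-negative marrow. Between normal groups the difference was −0.48 (SE 0.71, adjusted p = 0.571), and the lineage-negative mean of 5376 ± 4489 was 3263 without replicate 4.

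**Figure D3:**
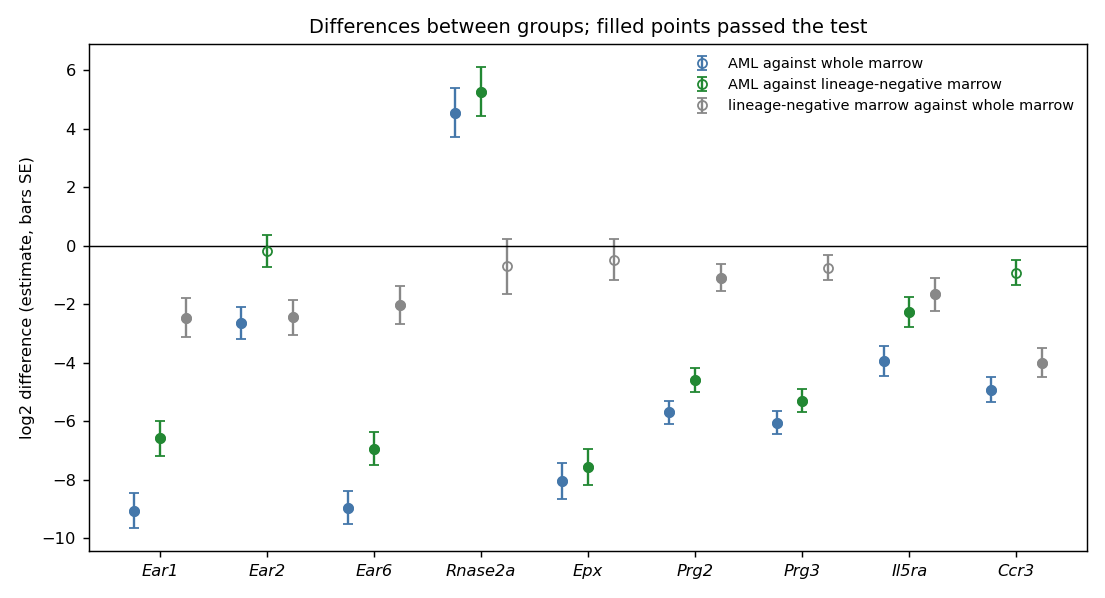
Estimated log2 difference with its standard error for each eosinophil gene in the 3 comparisons; filled points passed an adjusted p under 0.05 and a log2 difference of at least 1. Ear1, Ear6 and Epx lie lowest against whole marrow (−9.06, −8.96 and −8.05), Rnase2a lies above 0 in both AML comparisons, and Ccr3 is the lowest gene in lineage-negative against whole marrow (−4.00).

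The granule genes did not fall by equal amounts. The log2 ratio of Epx over Prg2 was −1.95 ± 0.142 in whole marrow, −1.32 ± 0.445 in lineage-negative marrow and −4.29 ± 1.39 in AML (SD). AML differed from whole marrow by −2.34 (exact p = 0.0121, adjusted 0.0273) and from lineage-negative marrow by −2.97 (exact p = 0.00303, adjusted 0.0136), with all 7 AML ratios below all normal ones. Prg2 thus exceeded Epx 3.56 to 4.45 times in whole marrow and 9.19 to 262 times in AML, where 262 belongs to replicate 1 and its Epx value of 1.27. Lineage-negative marrow lay 0.63 above whole marrow (exact p = 0.0286, the smallest that 70 splits allow, adjusted 0.0514), with all 4 ratios above all of whole marrow. The ratio of Prg3 over Prg2 was −4.35 ± 0.324, −3.99 ± 0.418 and −4.70 ± 0.657 in whole, lineage-negative and AML marrow. Its differences missed the threshold (AML from whole marrow −0.35, exact p = 0.336; AML from lineage-negative marrow −0.71, exact p = 0.0818; adjusted 0.336 and 0.11).

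**Figure D4:**
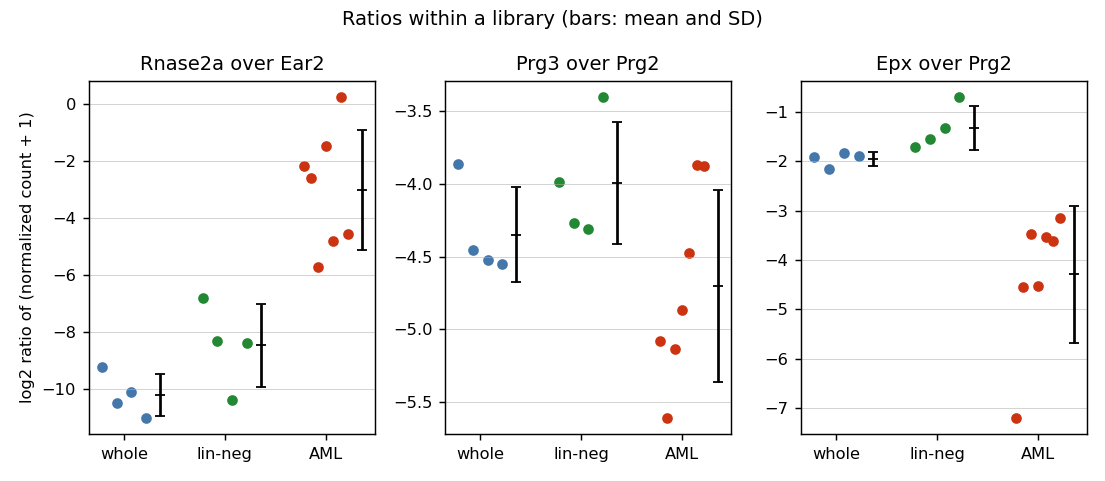
Log2 ratios of normalized count plus 1 within a library for Rnase2a over Ear2, Prg3 over Prg2 and Epx over Prg2; points are libraries and bars mean and SD. AML lies above both normal groups for Rnase2a over Ear2 (mean −3.02) and below both for Epx over Prg2 (mean −4.29), while Prg3 over Prg2 overlaps between all 3 groups.

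Both receptor genes were lower in AML than in whole marrow, and Ccr3 had the largest difference of the 9 genes between the normal groups. Ccr3 (ENSMUSG00000035448, chr9:124021972-124031689, plus strand) had 179, 395, 405 and 443 normalized counts in whole marrow, 19.1, 23.8, 24.7 and 14.4 in lineage-negative marrow and 4.94 to 35.5 in AML (median 8.49). Whole marrow stood clear of the other groups, and AML overlapped lineage-negative marrow, with 5 libraries below all 4 and 1 above. AML was 3.50% of whole marrow, a log2 difference of −4.93 (SE 0.43, adjusted p = 7.68e-08), and lineage-negative marrow 5.76% of it, −4.00 (SE 0.48, adjusted p = 1.35e-06). By the same measure lineage-negative marrow kept 89.1% of the Epx, 75.1% of the Prg3, 49.9% of the Prg2 and 25.4% to 38.9% of the Ear1, Ear2, Ear6 and Il5ra mean of whole marrow. These shares lean on lineage-negative replicate 4: without it the Epx, Prg3 and Prg2 means were 3263, 503 and 9154, beside 6032, 1099 and 23259 in whole marrow. They also depend on the scaling, as the log2 difference of Epx was −0.48 as deposited and −1.07 with TMM scaling. AML and lineage-negative marrow differed in Ccr3 by −0.93 (SE 0.43, adjusted p = 0.0860). Without AML replicate 3, the library with 35.5, this was −1.21 (adjusted p = 0.00868). Ccr3 reached 10 normalized counts in 2 of 7 AML libraries and in every normal library, so the filter favoured lower values in AML before the test. Over the alternatives, other filters included, adjusted p against whole marrow was at most 4.03e-06 (limma).

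Il5ra (ENSMUSG00000005364, chr6:106710357-106749037, minus strand) had 109, 196, 227 and 214 normalized counts in whole marrow, 39.9, 26.4, 79.3 and 115 in lineage-negative marrow and 2.83 to 38.0 in AML (median 10.8). AML replicate 3 was the 1 AML library inside the lineage-negative range. AML was 7.36% of whole marrow, a log2 difference of −3.94 (SE 0.50, adjusted p = 4.64e-06), and differed from lineage-negative marrow by −2.27 (SE 0.50, adjusted p = 0.000967). Lineage-negative marrow lay −1.67 from whole marrow (SE 0.57, adjusted p = 0.0147), a call lost without lineage-negative replicate 2 (−1.32, adjusted p = 0.0599). The Ccr3 promoter is printed because its window held the most motif matches of the 8 members with a RefSeq promoter (chr9:124021721-124021970, plus strand, capitals mark matches).
Ccr3: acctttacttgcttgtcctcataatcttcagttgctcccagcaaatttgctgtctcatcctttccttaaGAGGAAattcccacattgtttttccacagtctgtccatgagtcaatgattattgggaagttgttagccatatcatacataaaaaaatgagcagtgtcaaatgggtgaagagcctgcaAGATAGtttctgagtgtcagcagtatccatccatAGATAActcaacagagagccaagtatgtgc
It held GATA words (the word AGATAA, the word AGATAG, the word TGATAA or the word TGATAG on either strand, found in 26.5% of promoters) at 64 and 30 bases before the start and the PU.1 core (GAGGAA, 23.3%) at 181 bases. The GATA words also occurred once each in Prg3 and Il5ra, the PU.1 core in Rnase2a, and none of the 3 motifs in Epx or Ear6. The promoter of Prg2 was not analysed here.

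Per kilobase of exonic length, the order of levels in whole marrow was Prg2 (27755 ± 8653 normalized counts per kb), Ear1 (7772 ± 2538), Ear2 (6516 ± 1830), Ear6 (4189 ± 1225), Epx (2204 ± 722), Prg3 (1159 ± 185), Ccr3 (109 ± 36.6), Il5ra (52.2 ± 14.9) and Rnase2a (4.28 ± 1.77). Ear1 and Ear2 were within their spread of each other, as were Ear2 and Ear6. In lineage-negative marrow Prg2 led (13858 ± 7190). Ear1, Epx, Ear2 and Ear6 followed with means of 1632 to 1970, each with an SD over libraries of at least 1640, and their order was not tested. In AML the order began with Ear2 (1209 ± 962), Prg2 (603 ± 441) and Rnase2a (334 ± 609), which overlapped each other, and the other 6 genes were between 3.80 and 17.3. Rnase2a was thus the last of 9 by mean in both normal groups and number 3 in AML, with replicate 6 included.

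Single libraries tended to be high or low for many of the genes at once. Whole marrow replicate 1 was the lowest of its group for 8 of 9 genes as deposited. It was also the shallowest library, with an estimated 11.4 M reads against 13.1 to 17.2 M in the others. Its summed normalized counts were 10.2 M against 17.9 to 19.3 M. TMM scaling multiplied its values by 1.97, against 1.17 to 1.23 in the others, so its rank depends on the scaling. Lineage-negative replicate 4 was the highest of its group for 8 of 9 and the lowest for Ccr3, and had the highest T cell and B cell marker sums and the lowest basophil and mast cell sum of that group (125, 490 and 26894). In AML, replicate 2 was highest for Ear6, Epx, Prg2 and Prg3, replicate 3 for Ear2, Il5ra and Ccr3, and replicate 6 for Ear1 and Rnase2a. Replicate 3 also had the highest erythroid and B cell marker sums of the AML libraries (29897 and 5624), and its monocyte and macrophage sum (75386) was lower than that of the other AML libraries apart from replicate 4 (75203). The part of these measures in the results was not tested. Across all 3 groups, erythroid marker sums were 786501 to 1941910 in whole marrow, 17559 to 53811 in lineage-negative marrow and 381 to 29897 in AML, and monocyte and macrophage sums 17048 to 36958, 18766 to 29558 and 75203 to 134162. Basophil and mast cell sums were 4736 to 11519, 26894 to 46279 and 1779 to 7596, with Mcpt4 at 0 in every lineage-negative and AML library. Lineage depletion, marrow composition and eosinophil content cannot be told apart in this design.

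Other genes of the eosinophil pathway were taken from a list of 38, of which 37 were in the table and 32 were kept for testing. Against whole marrow 17 were higher, 7 lower and 8 not called in AML, which is 53.1% higher and 21.9% lower beside 27.3% and 11.3% of all genes. With TMM scaling these were 5, 9 and 18, or 15.6% higher and 28.1% lower beside 6.01% and 15.1% of all genes. Against lineage-negative marrow 13 were higher, 8 lower and 11 not called, under either scaling (40.6% and 25% of the list, beside 17.7% and 12.5% of all genes as deposited). In lineage-negative against whole marrow 9 were higher and 7 lower, which at 28.1% and 21.9% lay near the 33.1% and 17.2% of all genes. With TMM scaling they were 5 and 12 (15.6% and 37.5%, beside 13.7% and 23.3%). The median differences were 1.16, 0.68 and 0.21, beside 0.67, 0.02 and 0.59 for all genes.

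The ligands were largely undetected. Il5, Csf2, Ccl11 and Ccl7 did not pass the filter on low values, with Ccl11 at 0 in all AML and lineage-negative libraries, and of 2 tested ligands Ccl5 rose in AML. Of all genes, 27.3% were called higher in AML than in whole marrow and 17.7% higher than in lineage-negative marrow. Ccl5, a chemokine ligand of CCR3, had a mean of 562 ± 466 in AML, 110 ± 36.8 in whole and 37.8 ± 15.4 in lineage-negative marrow (log2 differences 2.00 and 3.54, adjusted p = 0.000993 and 3.30e-06). It was lower in lineage-negative than whole marrow (−1.54, adjusted p = 0.0139). Ccl24 was not called (1.84, adjusted p = 0.110 against whole marrow).

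Of 8 other receptor genes, 5 were higher and 3 lower than whole marrow in AML (27.3% and 11.3% of all genes), and 3 were higher and 3 lower than lineage-negative marrow (17.7% and 12.5%). With TMM scaling 2 of the 5, Csf2rb2 and Il3ra, were still called against whole marrow, and Csf2rb, Csf2ra (0.66) and Ptgdr2, a prostaglandin D2 receptor (1.06, adjusted p = 0.133), were not. Csf2rb, the beta chain that the interleukin 5 receptor shares with those of interleukin 3 and GM-CSF (named after its values were seen), rose by 1.34 (adjusted p = 0.000441) and 1.38 (adjusted p = 0.000441) as deposited, and was not called against whole marrow with TMM scaling (0.73). Csf2rb2, the beta chain specific to interleukin 3, rose by 2.22 (log2, SE 0.48, adjusted p = 0.000632) against whole and 1.55 (adjusted p = 0.0125) against lineage-negative marrow. Il3ra rose by 2.17 (SE 0.23, adjusted p = 8.50e-07) against whole marrow, from 85.5 ± 29.7 to 377 ± 60.1 normalized counts, and lay 0.10 from lineage-negative marrow. Csf2ra, the GM-CSF receptor alpha chain, rose by 2.37 (adjusted p = 6.45e-09) against lineage-negative marrow. The lower receptors were Hrh4, the histamine H4 receptor (−3.19 and −4.21, with 5 of 7 AML libraries at 0), Il1rl1, the interleukin 33 receptor (−2.12, adjusted p = 0.000326, and −3.66, adjusted p = 8.78e-07), and Siglecf, an eosinophil surface lectin (−1.27 and −1.61; named after its values were seen). Il1rl1 is also used by mast cells and basophils.

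Of 12 transcription factor genes, 7 were higher and 3 lower than whole marrow in AML (beside 27.3% and 11.3% of all genes), and as many against lineage-negative marrow (beside 17.7% and 12.5%). With TMM scaling 2 were higher and 3 lower than whole marrow (beside 6.01% and 15.1%). The 3 lower ones, in both comparisons, were Gata1, Gata2 and Zfpm1, which encodes the GATA cofactor FOG1. Gata1 had 430, 848, 894 and 1059 normalized counts in whole marrow, 1696, 1618, 1464 and 1707 in lineage-negative marrow and 5.09 to 42.0 in AML, with no overlap. Its log2 differences were −5.27 (SE 0.40, adjusted p = 1.17e-08) and −6.35 (SE 0.40, adjusted p = 2.75e-10). Gata2 differed by −1.63 (adjusted p = 0.000994) and −5.15 (adjusted p = 1.58e-09), and Zfpm1 by −3.37 (adjusted p = 2.05e-06) and −4.05 (adjusted p = 7.73e-08). GATA1 is also the central factor of red cells and platelets. The erythroid marker sums given above are mostly globin and were highest in whole marrow, but 2 genes of that list were higher by mean in lineage-negative marrow, as Gata1 was. Car1, a carbonic anhydrase of early erythroid cells, had means of 10962 in lineage-negative, 2098 in whole and 46.7 in AML marrow, and Klf1, an erythroid transcription factor, of 1839, 1531 and 17.2. The part of erythroid cells in the Gata1 level was not tested.

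Of the factors that rose in AML, Cebpa and Irf8, a factor of monocytes and dendritic cells, were called against whole marrow under both scalings (1.89, adjusted p = 8.27e-07, and 2.33, adjusted p = 1.51e-06). Cebpb (1.42), Spi1 (1.20), Xbp1 (1.31), Id1 (1.27) and Id2 (1.23) were called as deposited but not with TMM scaling (0.60 to 0.82). Against lineage-negative marrow Id2 (3.77, SE 0.24, adjusted p = 3.96e-10), Cebpe (2.39), Cebpb (2.27), Id1 (1.87), Spi1 (1.83), Xbp1 (1.22) and Irf8 (1.12) were higher, while Cebpa differed by −0.01. Cebpe, needed for granule formation in eosinophils and neutrophils, was at 1795 ± 664 in AML, 1956 ± 627 in whole and 325 ± 47.8 in lineage-negative marrow (SD). As deposited, it did not differ detectably between AML and whole marrow (−0.15, SE 0.27, adjusted p = 0.636). The median of all genes was 0.67 there, and the Cebpe difference ranged from −0.75 to 0.02 over the alternatives, so equality is not shown. Trib1, a pseudokinase that restrains C/EBP alpha, was not called in either comparison (0.21 and 0.96).

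All 4 signalling genes tested (Jak2, Stat5a, Stat5b and Lyn) were called higher than whole marrow as deposited, and none with TMM scaling. Of all genes, 27.3% and 6.01% were called higher under these scalings. Lyn, a kinase of the beta chain, was the 1 called against lineage-negative marrow (2.39, SE 0.20, adjusted p = 1.40e-08), where 17.7% of all genes were called higher. Among 6 granule and lipid mediator genes, Alox15, which encodes a lipoxygenase abundant in eosinophils, was the 1 called lower than whole marrow as deposited (beside 11.3% of all genes). With TMM scaling 3 of the 6 were called lower (beside 15.1%). Against lineage-negative marrow 2 were lower and 1 higher (beside 12.5% and 17.7%). Alox15 had 1340 ± 320 normalized counts in whole, 497 ± 195 in lineage-negative and 29.9 ± 30.1 in AML marrow, with log2 differences of −5.87 (SE 0.49, adjusted p = 4.13e-08), −4.38 (SE 0.49, adjusted p = 4.77e-07) and, between the normal groups, −1.49 (adjusted p = 0.0234). The largest differences of the list between lineage-negative and whole marrow were Gata2 (3.52), Stat5a (2.12), Il3ra (2.07), Cebpa (1.90) and Cst7 (1.71) on the higher side, and Id2 (−2.54), Cebpe (−2.53), Ccl5, Alox15 and Alox5 (−1.48) on the lower.

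**Figure D5:**
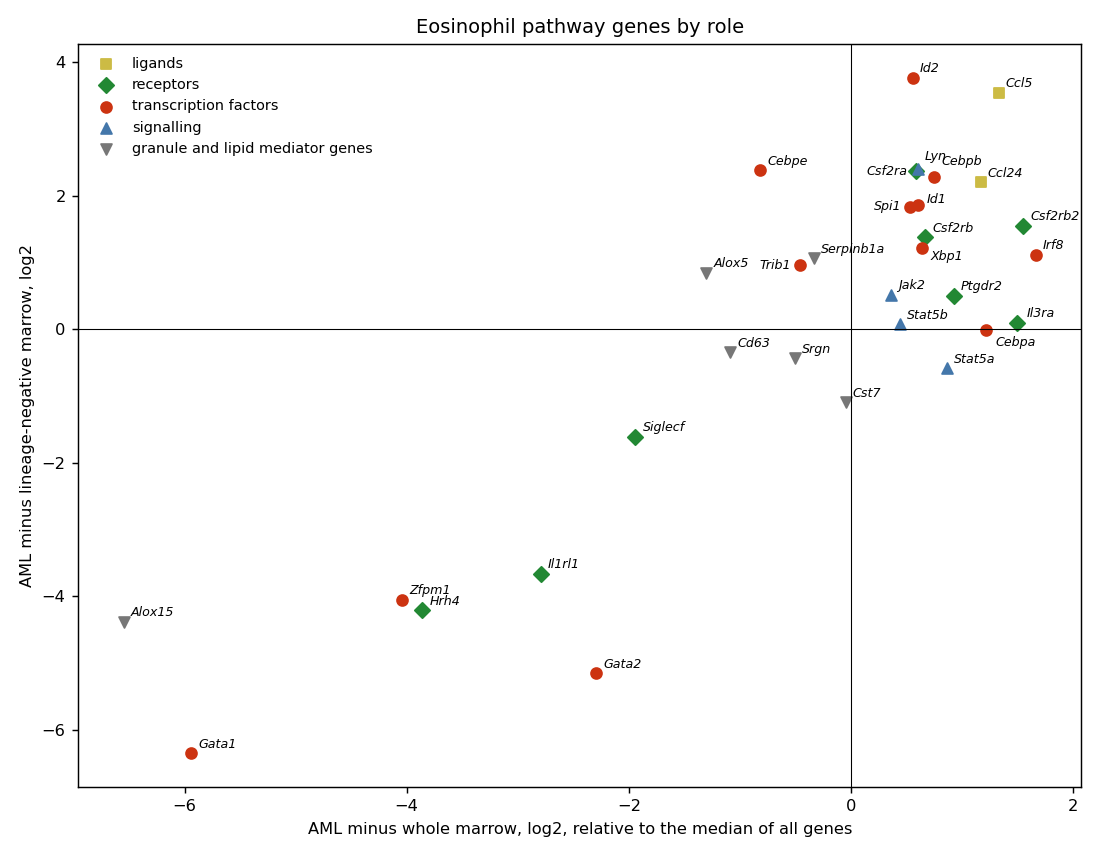
Log2 difference of AML from whole marrow, relative to the median of all genes, on the x axis and from lineage-negative marrow on the y axis for the 32 tested pathway genes, marked by role. Alox15, Gata1, Zfpm1, Hrh4, Il1rl1, Gata2 and Siglecf lie farthest to the lower left, and Cd63, Srgn and Cst7 are also below 0 on both axes. Most cytokine receptor chains and the factors Cebpb, Spi1, Irf8, Xbp1, Id1 and Id2 lie above 0 on both axes. Cebpe lies below 0 on the x axis, and Cebpa lies about 0 on the y axis.

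The rest of the ribonuclease A family had 13 listed genes in the table, of which 4 were kept, named here after their values were seen. Rnase4 and Rnase6 rose in AML against whole marrow (1.81 and 1.78, adjusted p = 6.99e-05 and 1.16e-05) and against lineage-negative marrow (3.11 and 2.71, adjusted p = 9.49e-08 and 3.71e-08). Ang, which encodes angiogenin, was called against lineage-negative marrow alone (1.97, adjusted p = 0.00349). Rnase12 fell in both comparisons (−3.93, adjusted p = 3.18e-05, and −4.94, adjusted p = 1.84e-06), from 63.1 ± 18.9 in whole marrow to 4.77 ± 4.00 in AML. The Ear paralogs Ear10, Ear14 and Rnase2b stayed under 10 normalized counts in every library.

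The genes whose profile over the 15 libraries was most like each member were found by the root mean square (RMS) difference of log2 values centred on each gene's mean, among 11243 genes. Prg2 lay nearest to Alox15 (RMS 0.554), Slc6a20a (0.669) and Acmsd (0.717), and Prg3 to Mylk3 (0.761), Pkhd1l1 (0.771) and Alox15 (0.791). Ear1 lay nearest to Pkhd1l1 (1.24), Sh3tc2 (1.45) and Klf1 (1.45), and Ear6 to Pkhd1l1 (1.44), Klf1 (1.48) and Aqp1 (1.60). Epx had Add2 (0.958), Ermap (0.988) and Klf1 (1.05) as neighbours, Ear2 had Cr2 (0.646), Fam210b (0.900) and Xpo7 (0.936), and Ccr3 had Tmcc2 (0.478), Bpgm (0.552) and Samd11 (0.653). Il5ra was closest to Ctse (0.651), Plpp1 (0.759) and Tmem120b (0.776). Rnase2a was closest to Tigit (1.01), Pdcd1 (1.16) and Gzmk (1.24), genes that in AML had means of 111, 334 and 113 and in whole marrow of 3.48, 8.15 and 3.19. Among the members themselves, Prg2 and Prg3 lay 0.562 apart, Ear1 and Ear6 0.962, Ear6 and Epx 1.12, Ear1 and Ear2 3.27, and Rnase2a and Epx 6.59.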

How the data were processed

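Bulk RNA sequencing of 15 mouse marrow samples was analysed, grouped by sample title. The deposited values are of the unit signal, which the authors made by dividing gene counts by a size factor per library; the submitters' processing notes name Partek, STAR, DESeq2 and mm10, without versions. The counter, its strand setting and its treatment of reads shared by paralogs are not given in the sources used here. Of 38066 table identifiers in a GRCm38 annotation, 861 had the same start, so the build of the table's coordinates is not settled, and GRCm38 coordinates matched by identifier are printed. Depth was estimated as the library total divided by the value of 1 read. As 83.6% to 88.6% of low values were whole multiples of it (tolerance 0.02), whole reads were not recovered and no count test was run.

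Genes with at least 10 normalized counts in at least 4 samples (18941) entered 1 limma fit of 3 group means on log2(value + 1), a scale that understates the change of low genes (limma 3.58.1, R 4.3.3, two-sided, Benjamini-Hochberg over all genes kept). All 9 members passed this filter, Rnase2a through AML libraries alone and Ear6 and Ccr3 through normal marrow alone. Ratios were compared by exact permutation tests over samples (scipy 1.17.1). Sequences were aligned with Biopython 1.88. The procedure was tested on simulated data. The members, lists and tests were chosen with earlier results of these data known. All members are named, and of the pathway list every transcription factor and up to 5 called genes per direction and comparison. Replicate numbers were not treated as pairs in the main fit, as the labels state no pairing. The alternatives were pseudocounts of 0.1 and 5, other filters, TMM, fits of 2 groups, a replicate block and leaving out libraries.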

Additional observations from a re-analysis of the deposited data

Results flagged for a closer look

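Of 27 groups of member values (9 genes in 3 groups), 3 held a library whose distance from its nearest neighbour was large for the range of the group. Dixon's test at 95% was used on log2(value + 1), where chance gives about 1 in 20. Values are printed below as counts, a scale that the test does not address. Rnase2a in AML replicate 6 (1177) was not flagged on the log2 scale. Epx in AML replicate 1 was at 1.27 normalized counts, against 20.98 to 52.9 in the other 6 AML libraries. Prg2 in whole marrow replicate 1 was at 12585, against 25047 to 28450 in the other 3, and Ccr3 in the same library was at 179, against 395 to 443. That library also had the lowest total of the 15, with 10.2 M summed normalized counts. With TMM scaling, tried after seeing the data, Prg2 was at 24827 there against 30071 to 34971 and Ccr3 at 352 against 461 to 532. Neither then passed Dixon's test (0.559 and 0.651 of the range on the log2 scale), while Epx in AML replicate 1 still did (1.10 against 19.4 to 47.5).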

How the results depend on the processing

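Across the alternatives, 611 of 621 values of the 27 member differences kept their direction and side of the threshold, 7 lost a call, 3 gained one and none reversed; all 10 are among Ccr3, Il5ra, Prg2 and Prg3 and concern lineage-negative marrow. When each library was left out, 8 members stayed lower and 1 higher in AML against whole marrow, 6 to 7 lower against lineage-negative marrow, and 4 to 7 lower between the normal groups (4 without lineage-negative replicate 2). With TMM scaling the pathway list had 5 genes higher in AML than whole marrow, and 5 higher and 12 lower in lineage-negative than whole marrow, and the ribonuclease sum of whole marrow was 18736. Leaving out a library gave sums of 901 to 1223 in AML, 13136 to 16411 in whole marrow and 2151 (without replicate 4) to 5399 in lineage-negative marrow. Between the normal groups, the log2 ratio of Epx over Prg2 differed by 0.63 with a pseudocount of 5 (adjusted exact permutation p = 0.0429). Leaving out a library gave 0.42 to 0.76, past the threshold without lineage-negative replicate 3 (0.63). The cause was not tested. The difference in Rnase2a over Ear2 was 2.28 with a pseudocount of 5 (adjusted exact permutation p = 0.0429) and 0.33 with 0.1. Leaving out a library gave 1.19 to 2.37, past the threshold without lineage-negative replicate 3 (2.37). Rnase2a lay about the floor in both normal groups, so this ratio follows Ear2 and the pseudocount. It shows no difference in Rnase2a. Without AML replicates 5 and 6, chosen after seeing the data, the counts of members were the same, and 16 pathway genes were higher than whole marrow. Correlations of same-numbered libraries ranged from −0.29 to 0.17. Such low values cannot exclude that samples came from the same animals, which the labels do not state. With the replicate block 1 member was higher and 8 lower in AML than whole marrow, 1 and 6 against lineage-negative marrow and 0 and 6 between the normal groups. The share of all genes called is given for the main fit and TMM scaling alone. Counts under the other settings therefore show only whether calls moved. Depth limits Rnase2a in normal marrow, whose medians lay under the floor of 3 reads, and in AML limits Ear1, Ear6, Prg3, Il5ra and Ccr3, with medians of 1.98 to 4.52 times the highest floor of that group, and Epx in replicate 1.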
